A study of Mus with 4 samples.

Results

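The ATF4 and amino acid response genes described here are 32 listed mouse genes, namely the transcription factor gene Atf4 with genes that it is known to act with or to activate, and genes of amino acid synthesis and amino acid transport. They were listed by gene symbol and not by a cut on their values, but with earlier results of these data known. The platform annotation held a probe set for 30 of the 32 (of 19505 genes in all), and Pycr1 and Ass1 were left out. The level of 25 of the 30 passed a filter on low values, a mean over the 4 arrays at or above 5.73, the median of the row means, which 10021 genes passed. RNA came from subcutaneous flank tumors of Renca cells, a mouse renal adenocarcinoma line, in male BALB/cCrSlc mice bought at 4 to 6 weeks of age. The cells stably carried 1 of 2 hairpin constructs, named shNrf3 (directed at Nrf3) and shCtrl (the control), and the hosts had eaten a high-fat diet (HFD) or normal chow (NC) for 17 weeks before the tumors grew for 2 weeks. The groups are shNrf3-HFD, shCtrl-HFD, shNrf3-NC and shCtrl-NC, with 1 Affymetrix array each. Every group thus carries a hairpin, no group has unmodified cells, and the labels do not say whether the lines are single clones or whether RNA was pooled over tumors.

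ATF4 is a basic leucine zipper transcription factor of the integrated stress response. Kinases that sense amino acid shortage, misfolded protein, heme shortage or double-stranded RNA phosphorylate the initiation factor eIF2, which slows protein synthesis in general but raises translation of the Atf4 mRNA. ATF4 then activates genes for amino acid import, for the synthesis of asparagine, serine and proline, and for tRNA charging. Because this control acts largely on translation and on protein stability, the Atf4 mRNA measured here is not a measure of ATF4 protein.

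All levels are log2 values, and a difference of 1 between arrays is 2-fold. With 1 array per group no difference between single arrays has a replicate check, so members and all genes are counted at 1.5-fold or more (0.58 on the log2 scale) with no test. Nfe2l3, the gene of Nrf3, read 6.05 on the shNrf3-HFD array, 5.77 on the shCtrl-HFD array, 5.56 on the shNrf3-NC array and 6.22 on the shCtrl-NC array. In HFD it was higher on the array labelled shNrf3, against the label, and all 4 readings lay close to the negative control medians (5.35 to 5.39), so groups below are named by the labels of their arrays and every direction rests on those labels. The median difference over all 10021 genes was not 0 (-0.14 for shNrf3 minus shCtrl in HFD, 0.14 in NC, 0.26 for HFD minus NC in shCtrl and -0.03 in shNrf3). For HFD minus NC in shCtrl it was 0.04 after cyclic loess between arrays and -0.06 with arrays centred on the genes past the filter (a setting chosen after seeing the data), so counts relative to each median are also given.

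The tissue on the 4 arrays was not the same mixture. Of 12 epithelial and renal tubule markers, Krt8 read 14.79, 15.08, 14.32 and 14.42 and Cdh1 read 13.85, 14.64, 13.34 and 13.97 on the shNrf3-HFD, shCtrl-HFD, shNrf3-NC and shCtrl-NC arrays. Other expressed markers of this list had other orders, such as Krt19 (7.77, 8.73, 8.97 and 8.45) and Aqp1 (8.62, 8.50, 9.45 and 8.27), while 6 markers, among them the renal genes Pax8 and Pax2, lay below the negative control median on every array. The median level of 15 skeletal muscle markers was 4.67, 5.37, 8.70 and 5.06 in the same order, with 11, 7, 1 and 9 markers below the control median. That of 12 adipocyte markers was 6.73, 8.01, 9.5 and 6.83, and that of 9 fibroblast markers was 11.80, 13.95, 13.89 and 14.43. The median of 13 macrophage and monocyte markers was 11.64, 11.15, 11.72 and 10.35. The median of 7 neutrophil markers was 7.65, 7.44, 6.86 and 5.77, with 5 of the 5 past the filter 1.5-fold or more higher for HFD minus NC in shCtrl, and that of 8 T cell markers was 5.07, 5.40, 6.88 and 5.68. By these medians the shNrf3-NC array was high in muscle, fat and T cell markers, and the shCtrl-NC array was lowest in macrophage and neutrophil markers. The part of these mixtures in the differences below was not tested, and in whole tumor RNA fewer cells of a type and less RNA per cell cannot be told apart.

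Diet in shCtrl tumors gave the widest differences among these genes. Of the 25 members past the filter, 14 were 1.5-fold or more higher in shCtrl-HFD than in shCtrl-NC, where 31.1% of all genes were, and 3 were lower, where 10.6% were. Serine and one-carbon genes (Shmt2, Phgdh, Psat1), the proline gene Aldh18a1, the asparagine gene Asns and the amino acid transporter genes Slc7a5, Slc1a5, Slc7a7, Slc3a2 and Slc7a1 were among those higher, and Atf4 itself was among those lower. The members' median difference was 0.63, against 0.26 over all genes. Counted from that median of all genes, 8 members were higher and 4 lower, against 19.6% and 18.5% of all genes. Cyclic loess left 8 members higher and 4 lower (21.2% and 16.4% of all genes), and the centring on genes past the filter left 6 and 5 (17.4% and 20.7%). Under loess Psat1 (0.47), Asns (0.38), Slc3a2 (0.41), Slc7a1 (0.41), Atf5 (0.55) and Eif4ebp1 (0.35) were no longer 1.5-fold higher. The 4 members Shmt2, Slc7a5, Aldh18a1 and Phgdh, lay above the 95th percentile of all genes (1.44), and Atf4 and no other member lay below the 5th (-0.90).

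The same diet comparison in shNrf3 tumors gave few differences. One member, Slc7a5, was 1.5-fold or more higher in shNrf3-HFD than in shNrf3-NC (8.78% of all genes), and Cebpb and Eif4ebp1 were lower (14.3% of all genes). The median was -0.02, against -0.03 over all genes, and 1 member was higher and 2 lower when counted from the median of all genes (9.65% and 13.2% of all genes). The centring on genes past the filter gave 1 higher and 1 lower (12.7% and 10.8% of all genes).

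Between the constructs, the 2 diets gave different pictures. In NC, 9 members were 1.5-fold or more higher in shNrf3 than in shCtrl, where 26.7% of all genes were, and 2 were lower, where 13.5% were. The members' median was 0.32, against 0.14, and 7 were higher and 3 lower when counted from the median of all genes (21% and 19% of all genes). Loess gave 6 higher and 3 lower (22.2% and 17.3% of all genes), and the centring gave 5 and 3 (19.0% and 21.8%). In HFD, 0 members were higher in shNrf3, where 9.01% of all genes were, and 6 were lower, where 20.6% were. That share of 24% lower is near that of all genes, and the median was -0.23, against -0.14. Counted from the median of all genes, 1 member was higher and 4 lower (13.7% and 14.8% of all genes). Loess gave 1 higher and 4 lower (12.0% and 16.2% of all genes), and the centring also gave 1 and 4 (16.8% and 12.2%). The NC comparison of constructs and the diet comparison in shCtrl share the shCtrl-NC array, so they are not separate evidence of a difference on that array.

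**Figure D1:**
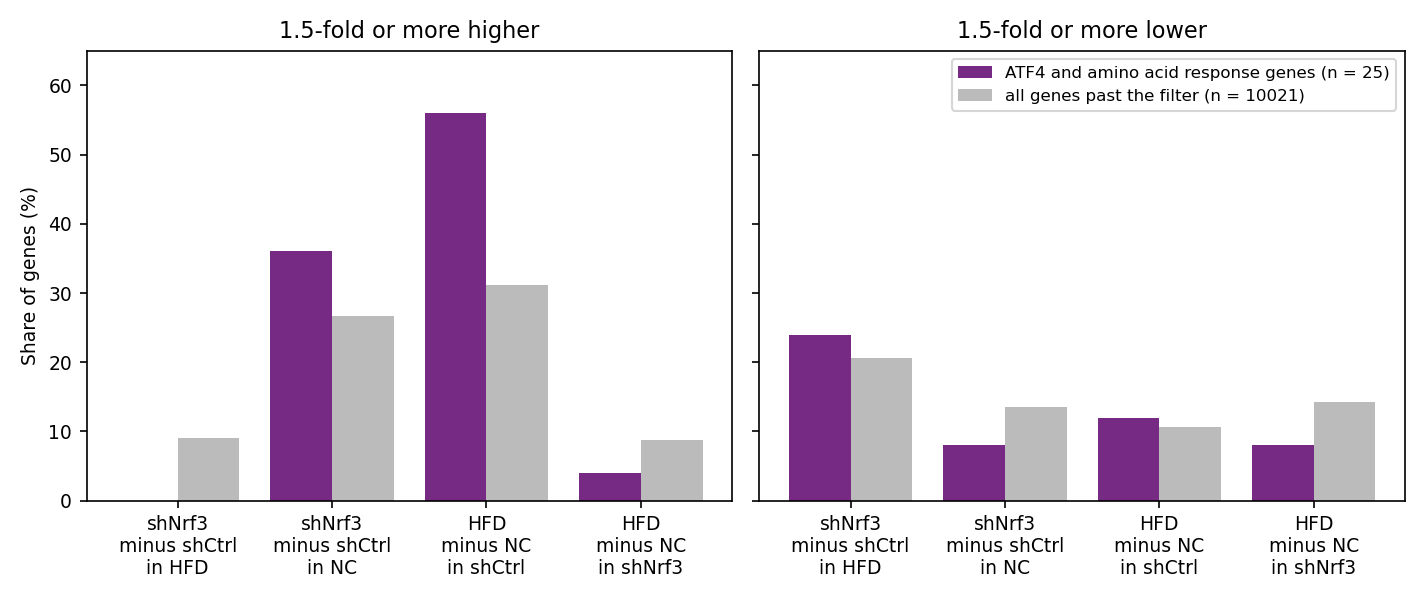
Share of genes (%) that were 1.5-fold or more higher (left panel) or lower (right panel) in each of the 4 comparisons, for the 25 ATF4 and amino acid response genes past the filter (purple bars) and all 10021 genes past it (grey bars). The widest gap is for HFD minus NC in shCtrl, with 56% of members higher against 31.1% of all genes, and each bar compares 1 array with 1 array.

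By array rather than by comparison, 16 of the 25 members were highest on the shCtrl-HFD array, against 36.7% of all genes. The count was 10 after loess (26.1% of all genes) and 9 with arrays centred on the genes past the filter (21.3%). The shCtrl-NC array was lowest for 11 of the members (41.6% of all genes, a share close to the members' own). After loess it was lowest for 10 (32.6% of all genes), and with the centring for 10 (29.0%). In the values as deposited, the shNrf3-HFD array was lowest for 7 (22.6% of all genes), shNrf3-NC for 5 (21.3%) and shCtrl-HFD for 2 (14.5%). On all 4 arrays 12 of the 25 read above the background limit, taken as the 95th percentile of negative controls (8.97 to 9.35), 6 did so on some arrays (Shmt2, Aldh18a1, Eif4ebp1, Slc7a1, Cebpb and Trib3) and 7 on none (Atf5, Asl, Cth, Slc7a7, Slc1a5, Slc6a9 and Vldlr). Each of these has at least 1 reading in the range of the negative controls.

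**Figure D2:**
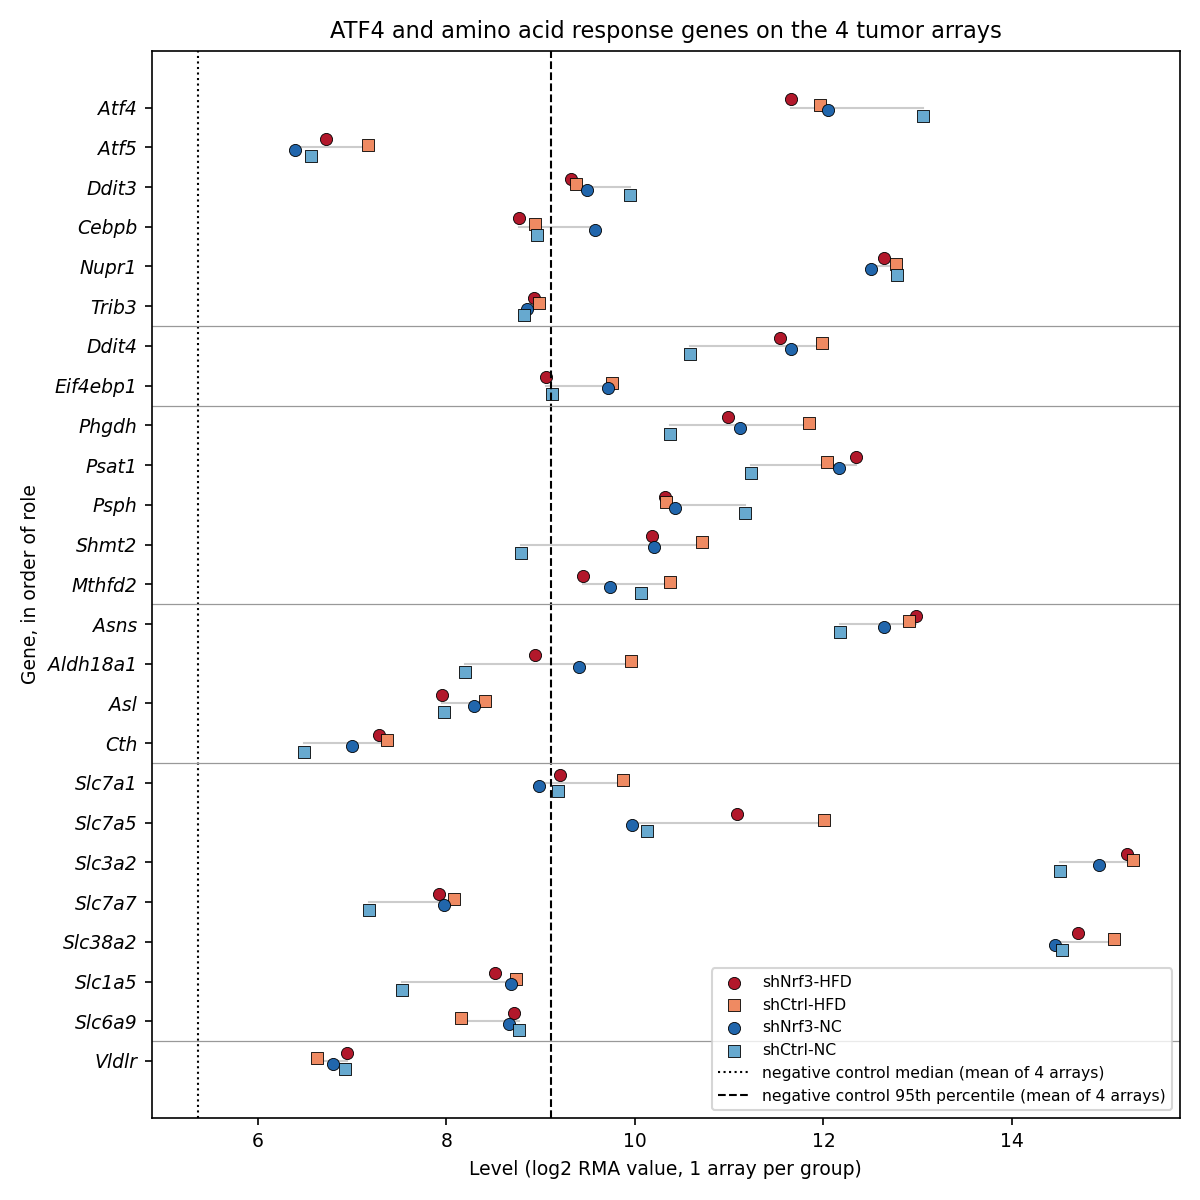
Level (log2 RMA value) of each of the 25 genes past the filter on each of the 4 arrays, in order of role, with 1 point per array and a grey line over the range. The dotted and dashed lines mark the negative control median and 95th percentile, as means of the 4 arrays; for Shmt2, Phgdh, Aldh18a1 and Ddit4 the shCtrl-NC point lies at the low end and the shCtrl-HFD point at the high end, and for Atf4, Ddit3 and Psph the shCtrl-NC point lies at the high end.

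Among the transcription factors and their regulators, Atf4 was highest on the shCtrl-NC array. It read 11.65 on the shNrf3-HFD array, 11.96 on the shCtrl-HFD array, 12.05 on the shNrf3-NC array and 13.06 on the shCtrl-NC array. The other 3 readings lay close together. The difference of HFD minus NC was -1.10 in shCtrl and -0.39 in shNrf3, and that of shNrf3 minus shCtrl was -0.31 in HFD and -1.01 in NC. Ddit3, which encodes the pro-apoptotic factor CHOP, read 9.32, 9.37, 9.49 and 9.94 in the same order of arrays, again highest on shCtrl-NC, with a difference of -0.57 for HFD minus NC in shCtrl that lies just under 1.5-fold. A second probe set of Ddit3 did not follow it, with 7.10, 7.54, 8.0 and 7.09, so the direction for Ddit3 depends on the probe set.

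Of the other factors of this kind, Cebpb and Atf5 reached 1.5-fold in at least 1 comparison. Cebpb, a C/EBP factor that dimerizes with ATF4 and also takes part in inflammation, read 8.77 on shNrf3-HFD, 8.95 on shCtrl-HFD, 9.58 on shNrf3-NC and 8.97 on shCtrl-NC. Its shNrf3-NC reading alone was high, with differences of 0.61 for shNrf3 minus shCtrl in NC and -0.81 for HFD minus NC in shNrf3. Atf5, a close relative of Atf4 that is itself under translational control, was highest on shCtrl-HFD (7.16, against 6.39 to 6.72 on the other arrays), with a difference of 0.60 from shCtrl-NC. Trib3, a pseudokinase gene that is induced by ATF4 and CHOP and restrains them, ranged from 8.82 to 8.99 over the 4 arrays. Nupr1, a small stress-induced chromatin protein, ranged from 12.50 to 12.78. Neither Trib3 nor Nupr1 reached 1.5-fold in any comparison.

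Both stress effector genes past the filter were higher in shCtrl-HFD than in shCtrl-NC. Ddit4 encodes REDD1, which restrains the growth kinase complex mTORC1. It read 11.54 on shNrf3-HFD, 11.99 on shCtrl-HFD, 11.66 on shNrf3-NC and 10.58 on shCtrl-NC, so that shCtrl-NC was low. Its difference of HFD minus NC was 1.41 in shCtrl (2.66-fold) and -0.12 in shNrf3, and that of shNrf3 minus shCtrl was -0.45 in HFD and 1.08 in NC. Eif4ebp1 encodes 4E-BP1, a repressor of cap-dependent translation that mTORC1 turns off. It read 9.06, 9.75, 9.72 and 9.12 in the same order, and the shCtrl-HFD and shNrf3-NC arrays were the high pair. Its differences were all close to 1.5-fold, -0.70 in HFD and 0.60 in NC for shNrf3 minus shCtrl, and 0.63 in shCtrl and -0.66 in shNrf3 for HFD minus NC, and under loess all but that in shNrf3 were smaller than 1.5-fold.

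The enzymes of serine synthesis and of the mitochondrial one-carbon pathway did not differ as a block. Phgdh, Psat1 and Psph carry out the successive steps from a glycolytic intermediate to serine, Shmt2 turns serine into glycine in mitochondria and Mthfd2 oxidizes the one-carbon unit that this releases. Shmt2 read 10.18 on shNrf3-HFD, 10.72 on shCtrl-HFD, 10.20 on shNrf3-NC and 8.79 on shCtrl-NC. The shCtrl-NC reading was low, under the background limit of that array (9.35), and the differences from it were 1.93 for HFD minus NC in shCtrl (3.81-fold) and 1.42 for shNrf3 minus shCtrl in NC (2.67-fold). In HFD the constructs differed by -0.54, and in shNrf3 the diets differed by -0.02.

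Phgdh read 10.98 on shNrf3-HFD, 11.84 on shCtrl-HFD, 11.11 on shNrf3-NC and 10.37 on shCtrl-NC. It was highest on shCtrl-HFD and lowest on shCtrl-NC, with differences of 1.47 for HFD minus NC in shCtrl (2.77-fold), -0.86 for shNrf3 minus shCtrl in HFD and 0.74 in NC. Psat1 read 12.35, 12.04, 12.17 and 11.23 in the same order, with shCtrl-NC low and the other 3 arrays close together. Psph went the other way. It read 10.32, 10.33, 10.42 and 11.17, so that shCtrl-NC was the high array, as for Atf4, with differences of -0.84 for HFD minus NC in shCtrl and -0.74 for shNrf3 minus shCtrl in NC. Mthfd2 read 9.45, 10.37, 9.74 and 10.07 and was higher on both arrays labelled shCtrl, with a construct difference of -0.92 in HFD and -0.32 in NC.

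Among the enzymes of asparagine, proline, arginine and cysteine synthesis, Aldh18a1 differed the most. It encodes the enzyme that begins proline synthesis from glutamate, and it read 8.95 on shNrf3-HFD, 9.96 on shCtrl-HFD, 9.41 on shNrf3-NC and 8.19 on shCtrl-NC. Diet differed by 1.76 in shCtrl (3.39-fold) and by -0.46 in shNrf3. The construct difference was -1.01 in HFD and 1.21 in NC, which is the widest gap between the 2 diets among the members. Asns, the asparagine synthetase gene and a standard readout of the amino acid response, read 12.99, 12.91, 12.65 and 12.18 in the same order, with both HFD arrays high and a diet difference of 0.74 in shCtrl and 0.34 in shNrf3.

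Cth, which makes cysteine from cystathionine, read 7.29 on shNrf3-HFD, 7.37 on shCtrl-HFD, 7.0 on shNrf3-NC and 6.49 on shCtrl-NC, and like Asns it was higher on both HFD arrays (0.88 in shCtrl and 0.29 in shNrf3). Asl, which releases arginine from argininosuccinate, ranged from 7.95 to 8.41 and reached 1.5-fold in no comparison.

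Slc7a5, an amino acid transporter gene, was the only member 1.5-fold or more higher in HFD with either construct. The share of all genes with this trait was not computed. Outside the members, the transporter genes Slc1a4 (1.10 in shCtrl and 1.05 in shNrf3) and Slc38a1 (0.86 and 0.59) were also higher. All readings of Slc1a4 lay under the background limit. Slc7a5 encodes LAT1, which imports leucine and other large neutral amino acids in exchange for glutamine. LAT1 pairs with the heavy chain CD98 encoded by Slc3a2. Slc7a5 read 11.08 on shNrf3-HFD, 12.01 on shCtrl-HFD, 9.97 on shNrf3-NC and 10.13 on shCtrl-NC, and both HFD arrays lay above both NC arrays. The diet difference was 1.88 in shCtrl (3.69-fold) and 1.12 in shNrf3 (2.17-fold), and the construct difference was -0.93 in HFD and -0.16 in NC. Slc3a2 read 15.23, 15.29, 14.92 and 14.51 in the same order, also higher in HFD, by 0.78 in shCtrl and 0.30 in shNrf3. Both partners were thus higher on the HFD arrays, with 1.5-fold reached by Slc3a2 in shCtrl alone, and there not after loess (0.41) or centring on the genes past the filter (0.46).

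Slc1a5 encodes ASCT2, a glutamine importer, and it read 8.52 on shNrf3-HFD, 8.74 on shCtrl-HFD, 8.69 on shNrf3-NC and 7.53 on shCtrl-NC. Only the shCtrl-NC reading was low, with differences of 1.21 for HFD minus NC in shCtrl and 1.16 for shNrf3 minus shCtrl in NC. Slc7a7 encodes y+LAT1, an exchanger of cationic and neutral amino acids that macrophages also express. It read 7.92, 8.08, 7.97 and 7.18 and had the same order, with shCtrl-NC low. The median of the macrophage markers was lowest on that array too, as given above. Mrc1, Cd163 and Arg1 were instead lowest on shCtrl-HFD, as was Lyz2 by a small margin, and a link to Slc7a7 was not tested.

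Slc7a1, the gene of the cationic amino acid transporter CAT1, read 9.21 on shNrf3-HFD, 9.87 on shCtrl-HFD, 8.99 on shNrf3-NC and 9.19 on shCtrl-NC. Its shCtrl-HFD reading alone was high, 0.69 above shCtrl-NC, and shNrf3-HFD differed from it by -0.67. Slc38a2, the gene of SNAT2, which takes up small neutral amino acids and is induced when they are short, ranged from 14.45 to 15.08 and was highest on shCtrl-HFD as well, within 1.5-fold in every comparison. Slc6a9, the glycine transporter gene GlyT1, read 8.71, 8.16, 8.67 and 8.77, and shCtrl-HFD was its low array (-0.62 from shCtrl-NC).

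**Figure D3:**
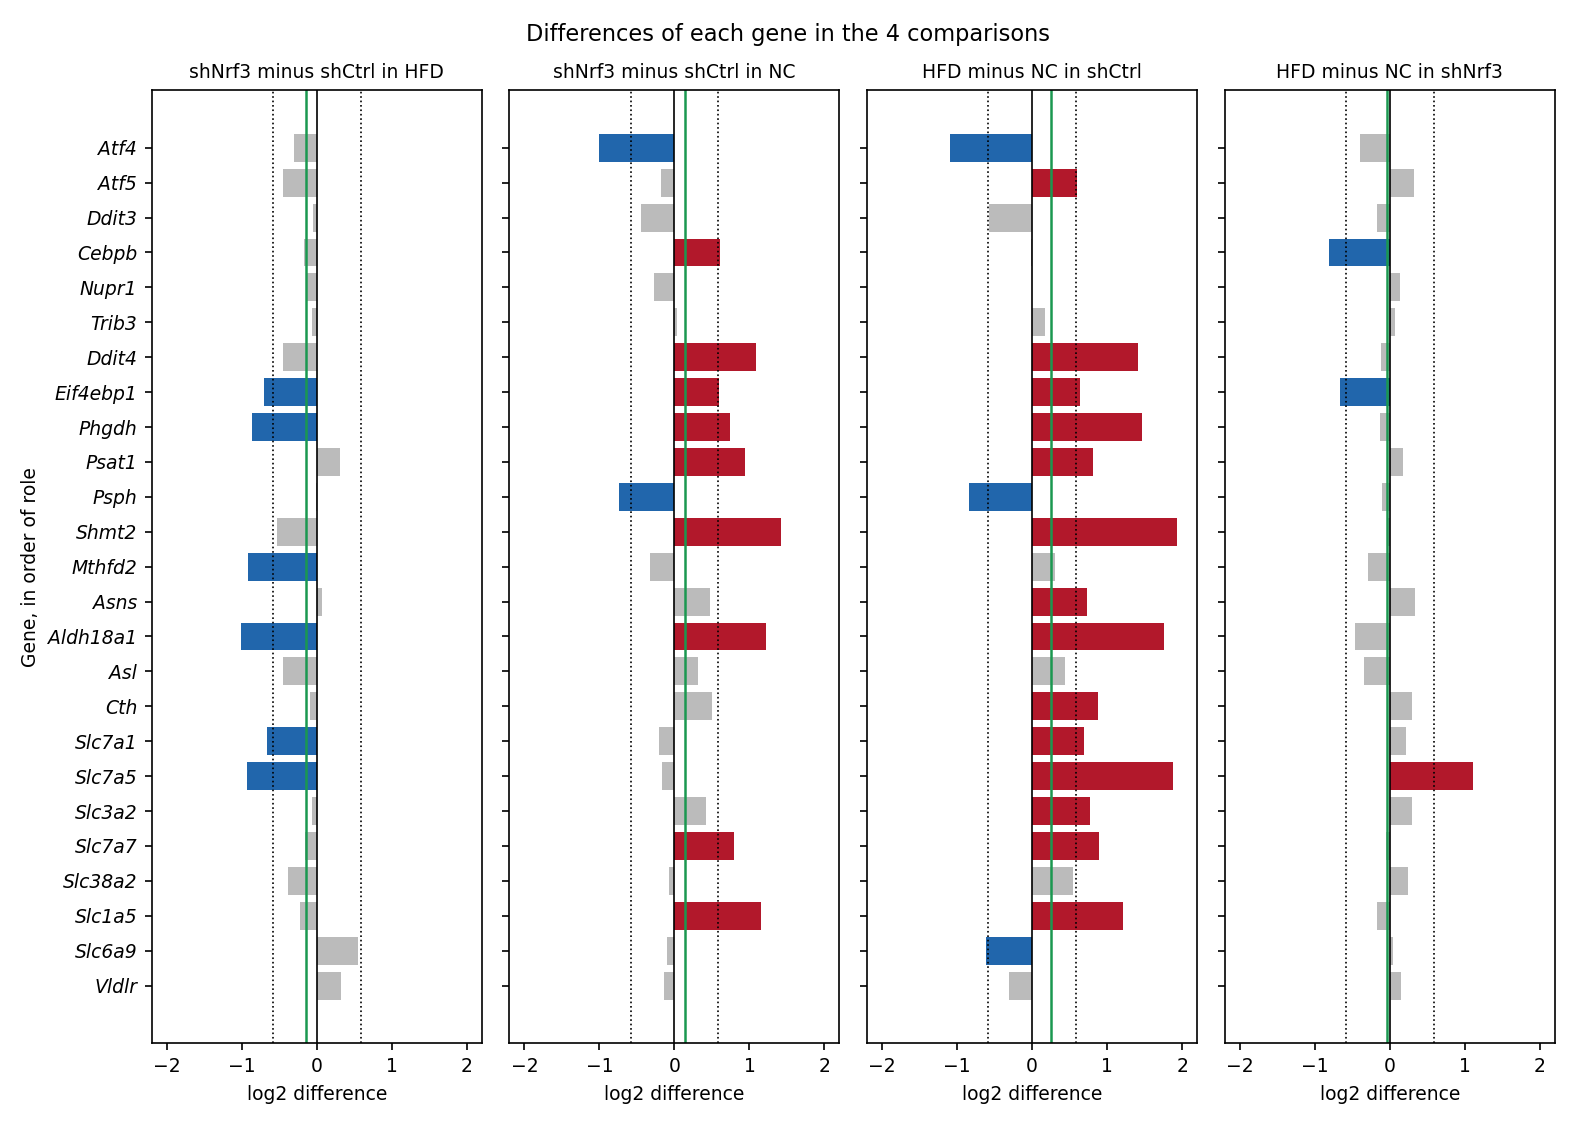
Log2 difference of each of the 25 genes in each comparison, in order of role, with red bars for 1.5-fold or more higher, blue bars for 1.5-fold or more lower and grey bars for the rest. Dotted lines mark 1.5-fold and green lines the median over all 10021 genes, which lies at 0.26 for HFD minus NC in shCtrl, where 14 bars are red, and at -0.03 for HFD minus NC in shNrf3, where 1 is.

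The remaining members gave low readings or small differences. Vldlr, a lipoprotein receptor gene that ATF4 can induce, ranged from 6.62 to 6.94, within 1.5-fold in every comparison. The filter left out 5 members. Fgf21, a stress-induced hormone gene, Sesn2, a leucine sensor that restrains mTORC1, and Slc7a3, which encodes the cationic transporter CAT3, read below the negative control median on all 4 arrays, and no difference is given for them. Stc2, a secreted glycoprotein gene, passed that median on shCtrl-HFD alone (5.69). Chac1, which degrades glutathione and is among the genes most strongly induced by ATF4 and CHOP, read 6.07 on shNrf3-HFD, 5.65 on shCtrl-HFD, 5.24 on shNrf3-NC and 5.54 on shCtrl-NC. With the shNrf3-NC reading set to the control median, the diet difference of Chac1 in shNrf3 was 0.72 or more.

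Set side by side, the construct differences of the 2 diets use no array in common. The 3 members Aldh18a1, Phgdh and Eif4ebp1 were 1.5-fold or more higher in shNrf3 in NC and 1.5-fold or more lower in HFD, a share of 12% of the 25 against 5.01% of all genes. No member was 1.5-fold or more different in the same direction in both diets. The share of all genes with such a difference was not computed, so this count has no background to be read against. With 1 array per group the construct by diet difference leaves nothing to estimate an error from and was not tested.

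**Figure D4:**
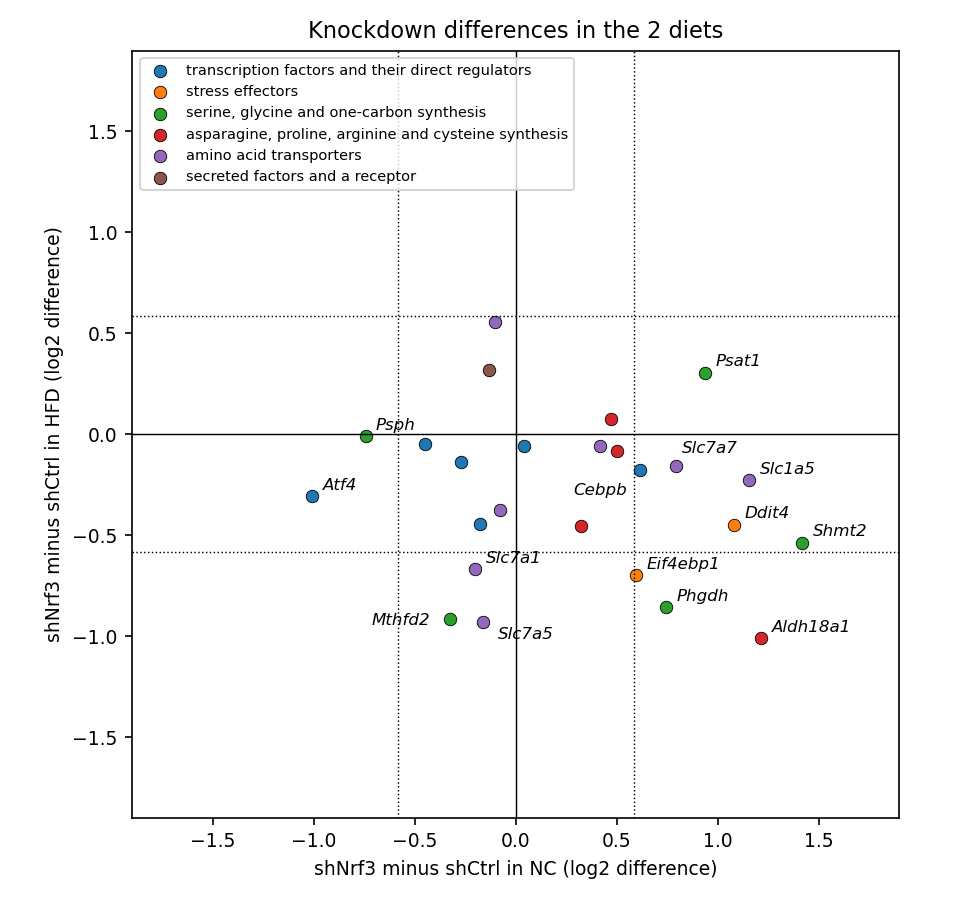
Difference of shNrf3 minus shCtrl in NC (horizontal axis, log2) and in HFD (vertical axis, log2) for the 25 genes past the filter, coloured by role, with dotted lines at 1.5-fold and names for genes past either. Aldh18a1, Phgdh and Eif4ebp1 lie to the right and below, higher in shNrf3 in NC and lower in HFD, and no gene lies past 1.5-fold in the upper right or lower left corner. The share of all genes in those 2 corners was not computed.

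Genes that act around ATF4 were read from 10 further lists, whose counts at 1.5-fold stand beside 31.1% of all genes higher and 10.6% lower for HFD minus NC in shCtrl, 26.7% and 13.5% for shNrf3 minus shCtrl in NC, and 9.01% and 20.6% for it in HFD. After loess those shares of all genes were 21.2% and 16.4%, 22.2% and 17.3%, and 12.0% and 16.2%, in the same order. With lists of 6 to 14 genes, none of the list counts was tested, and their values under other scalings were added after seeing the data. The bZIP factors that can dimerize with ATF4, with the related factors listed beside them, had 6 of 13 genes higher and 0 lower for HFD minus NC in shCtrl, and 8 higher and 0 lower for shNrf3 minus shCtrl in NC. After loess these were 4 higher and 1 lower, and 8 and 0. Cebpg, the C/EBP partner through which ATF4 acts on many amino acid genes, read 10.37 on shNrf3-HFD, 10.49 on shCtrl-HFD, 10.31 on shNrf3-NC and 9.20 on shCtrl-NC, the pattern of Shmt2 and Slc1a5. Jun, an AP-1 subunit, was highest on shCtrl-HFD and lowest on shCtrl-NC (11.93 and 10.54, a difference of 1.39). Cebpd, an inflammation-linked C/EBP factor, was instead high on shNrf3-NC (11.17, against 9.29 to 9.79 on the others).

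The eIF2 kinases and the other genes that set eIF2 activity had 5 of 13 higher and 1 lower for HFD minus NC in shCtrl, and 3 higher and 0 lower for shNrf3 minus shCtrl in NC, shares near those of all genes. In HFD 2 were higher and 2 lower in shNrf3, and 3 and 1 after loess. Impact, which inhibits the amino acid sensing kinase GCN2, read 11.44 on shNrf3-HFD, 10.08 on shCtrl-HFD, 10.65 on shNrf3-NC and 10.44 on shCtrl-NC, with shNrf3-HFD alone high. Eif2b5, a subunit of the eIF2 exchange factor, read 6.67, 5.59, 6.56 and 6.35 in the same order, all under the background limit. It was higher in shNrf3 in HFD (1.08), with shCtrl-HFD alone low. Dnajc3, an inhibitor of the eIF2 kinases, was higher in shNrf3 in NC (1.09). Eif2ak4, the gene of GCN2, was higher in HFD with either construct (0.98 in shCtrl and 1.03 in shNrf3), with all readings under the background limit.

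The tRNA synthetase genes known as ATF4 targets had 4 of 12 higher and 0 lower for HFD minus NC in shCtrl, a share close to that of all genes, and 1 higher and 2 lower after loess. In NC 2 were higher and 1 lower in shNrf3, with a median of -0.07, and 1 and 4 after loess. Cars, the cysteinyl-tRNA synthetase gene, read 9.15 on shNrf3-HFD, 10.78 on shCtrl-HFD, 9.77 on shNrf3-NC and 10.03 on shCtrl-NC, a construct difference of -1.63 in HFD. The 6 other cytosolic synthetase genes measured had 2 higher and 0 lower for diet in shCtrl and 3 higher and 0 lower for shNrf3 in NC (1 and 1 in both after loess), with Kars, the lysyl-tRNA synthetase gene, low on shCtrl-NC alone (11.78, against 13.36 to 13.53).

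Among metabolic genes near the members, the other one-carbon and glycine enzymes had 4 of 8 higher and 0 lower for diet in shCtrl, and the same counts for shNrf3 in NC. After loess 1 was higher and 0 lower for diet in shCtrl, while the counts in NC were again 4 and 0. Shmt1, the cytosolic counterpart of Shmt2, differed by 1.09 and 0.73 in these comparisons, with all its readings under the background limit. Enzymes of glutamate, glutamine, aspartate and proline had 2 of 8 higher and 1 lower for diet in shCtrl and 4 higher and 0 lower for shNrf3 in NC. Got2, the mitochondrial aspartate aminotransferase gene, read 12.81 on shNrf3-HFD, 13.60 on shCtrl-HFD, 13.33 on shNrf3-NC and 12.08 on shCtrl-NC, the same order of arrays as for Aldh18a1.

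Arginine and polyamine enzymes had 4 of 7 higher and 0 lower in shNrf3 in NC and 3 higher and 0 lower in HFD, and for diet in shCtrl 2 higher and 1 lower. After loess the diet counts were 1 higher and 4 lower. Srm, which makes spermidine, differed by 1.95 in NC and 0.82 in HFD. Arg1 and Nos2, which compete for arginine and are abundant in macrophages, differed by 1.51 and 1.42 in NC and by 2.65 and 0.66 in HFD. Of 13 macrophage markers, 1 of which is Arg1, 12 were higher in shNrf3 in NC and 7 in HFD, and the part of macrophages in these enzyme values was not tested.

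Cysteine and glutathione genes had 2 of 8 higher and 1 lower for diet in shCtrl, and 2 and 2 after loess. Chac2, a relative of Chac1 with slow basal activity, read 7.74 on shNrf3-HFD, 9.09 on shCtrl-HFD, 7.68 on shNrf3-NC and 6.66 on shCtrl-NC. Its diet difference was 2.42 in shCtrl, and only the shCtrl-HFD reading passed the background limit. The glutathione reductase gene Gsr was instead higher in shNrf3 with either diet (1.04 in NC and 0.76 in HFD). Other amino acid transporter genes had 6 of 14 higher and 0 lower for diet in shCtrl (5 and 0 after loess). Among them were Slc43a2, a leucine transporter gene also called LAT4, at 2.09 and Slc7a6 at 1.59. All readings of Slc7a6 lay under the background limit. Slc7a2, a cationic transporter gene, was high on the shNrf3-NC array alone (7.66, against 5.07 to 5.68). Its readings on shCtrl-HFD (5.07) and shCtrl-NC (5.25) lay below the negative control medians of those arrays. The shNrf3-NC array was also the one high in muscle, fat and T cell markers, and a link to Slc7a2 was not tested.

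Genes of the other arms of the unfolded protein response had 2 of 11 higher and 1 lower for diet in shCtrl (1 and 2 after loess), and 5 higher and 0 lower for shNrf3 in NC. Xbp1, the factor of the IRE1 arm, was highest on shCtrl-HFD (12.98, against 11.33 on shCtrl-NC). Herpud1, a degradation factor of the endoplasmic reticulum, was lowest on shNrf3-HFD (10.15, against 11.06 to 11.82), and Sdf2l1, a chaperone cofactor, was highest on shNrf3-NC (8.95, against 7.41 to 7.64).

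Fitted to all 4 arrays with limma, a model that adds construct to diet has 1 residual degree of freedom, which is the construct by diet difference. None of the 25 members passed an adjusted p of 0.05 for either term, and the share of all genes that passed was 0.0% for both. At an unadjusted p under 0.05, 0 members and 447 of 10021 genes passed for the construct, and 1 member and 292 genes for diet. That member was Slc7a5, with an HFD minus NC difference of 1.5 ± 0.41 (SE), an unadjusted limma p of 0.0085 and an adjusted p of 0.999, higher on 2 of 2 HFD arrays than on either NC array. Atf4 had the smallest p of the members for the construct, with a shNrf3 minus shCtrl difference of -0.66 ± 0.40 (SE) and an adjusted limma p of 0.961, lower in both diets. This fit takes the construct by diet difference as error, so members with opposite differences in the 2 diets, such as Aldh18a1, have wide errors in it.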

How the data were processed

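Total RNA (100 ng) was labelled with biotin and hybridized, per the labels' protocols. The deposited values are log2 RMA levels from Affymetrix Expression Console, per the submitters' processing notes; the sources used here give no versions, pooling or genome build. No coordinates or sequences are printed. The table holds 28846 rows, among them 5222 negative control rows. Of 22206 transcript rows, 19572 have 1 gene symbol and 2634 none, and 0 have several. For the 55 genes with several probe sets, that with the highest mean was taken. Readings under an array's negative control median were set to it, and a difference of 2 such readings was left out.

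From these values, differences were computed with Python 3.11.15. The additive fit used limma 3.58.1 in R 4.3.3 (Benjamini-Hochberg adjustment over 10021 genes). Its effect sizes were checked on simulated data without a construct by diet difference, so its p-values on the present arrays were not checked. Cyclic loess, centring, filters (50th percentile, 75th or none), probe set means, unfloored readings, a 2-fold threshold and eBayes settings were alternatives. Arrays have no read depth; their number limits precision. Genes were named if they are members, or among up to 3 genes of a further list with the largest difference in any comparison. Eif2ak4, Slc1a4 and Slc38a1 were named as well, for their diet differences with either construct. Members and lists were chosen with earlier results of these data known.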

Additional observations from a re-analysis of the deposited data

Results flagged for a closer look

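In 3 genes the construct difference went opposite ways in the 2 diets by 1.5-fold or more, which was not tested, since each group has 1 array. The difference of shNrf3 minus shCtrl in HFD less that in NC was -2.23 for Aldh18a1, -1.60 for Phgdh and -1.30 for Eif4ebp1 on the log2 scale. After cyclic loess between arrays the NC differences of Phgdh (0.53) and Eif4ebp1 (0.44) and the HFD difference of Eif4ebp1 (-0.55) were under 1.5-fold, and both differences of Aldh18a1 stayed past it.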

How the results depend on the processing

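After cyclic loess, 8 members were higher for HFD minus NC in shCtrl (21.2% of all genes) with a median of 0.38. The median for shNrf3 minus shCtrl in NC was 0.11, and for that difference in HFD 1 member was higher (12.0% of all genes). The HFD minus NC median in shNrf3 was 0.0010. With arrays centred on the genes past the filter, chosen after seeing the data, 6 were higher and 5 lower for HFD minus NC in shCtrl (17.4% and 20.7% of all genes; median 0.32). For shNrf3 minus shCtrl this gave 5 higher in NC (19.0% of all genes, median 0.11) and 1 in HFD (16.8%, median -0.014). For HFD minus NC in shNrf3 it gave 1 lower (10.8% of all genes, median 0.081). That limma fit called 27 genes for construct and 11 for diet, 0 of them members, with adjusted p of 0.845 or more and 0.397 or more among members. With the filter at the 75th percentile the NC construct median was 0.038. With no filter, Chac1 made 2 members higher for HFD minus NC in shNrf3 (5.14% of all genes, median 0.0096). At 2-fold, counts were 4 higher and 1 lower for construct in NC (13.2% and 4.47% of all genes). For construct in HFD 1 was lower (6.95% of all genes). For diet, 6 were higher and 1 lower in shCtrl (14.5% and 3.79% of all genes), and 0 lower in shNrf3 (4.93%). The cause was not tested. In the other limma fits 0 genes were called.

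Of 37 single differences of members at 1.5-fold or more, 0 changed sign under another scaling, and 21 stayed past 1.5-fold under every scaling. The filters, the probe set rule and the floor could not change these values. A filter only drops genes, no gene among them has several probe sets, and none of their readings lay below a control median. Leaving out an array leaves the single comparisons without it, given above, and no residual for a fit. Readings below the 95th percentile of the negative controls limit what low genes can show.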
